A study of Mus musculus with 23 samples.

Results

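Fibroblast growth factor (FGF) response was read here from 10 genes that FGF signalling is known to switch on or that feed back on it: Etv1, Etv4, Etv5, Dusp4, Dusp6, Spry1, Spry2, Spry4, Shisa2 and Il17rd. A probe was taken as a member where the RefSeq accession in the array file mapped to a symbol among them, which gave 12 probes, 2 each for Etv1 and Etv4. All 10 genes were among the 16323 genes tested, out of 20887 symbols with a probe. The 23 1-colour Agilent arrays measured RNA from B6/CL mice, taken from the eyelid, from the lacrimal gland (LG) and from the harderian gland (HG). The 6 embryonic groups, with 3 arrays each, were the epithelium and the mesenchyme of each of these tissues at embryonic day 16.5. The eyelid tissue included the conjunctiva of the eye. The other groups were the whole LG (2 arrays) and the whole HG (3 arrays) at 7 weeks, and no group carried a labelled mutation or treatment.

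FGFs bind receptor tyrosine kinases and act through Ras and the kinase ERK. Etv1, Etv4 and Etv5, ETS-domain transcription factors of the PEA3 subfamily, are switched on downstream of ERK, and Dusp, Sprouty, Il17rd and Shisa proteins damp the same pathway at the levels of ERK, Ras and the receptor. In the lacrimal gland, Fgf10 from the mesenchyme acting on Fgfr2 in the epithelium is known to be required for the gland bud to form and branch. How the tissue layers were separated, and whether each array stands for a separate animal or a pool, is not stated in the labels, so a p-value here covers the spread among these arrays alone, which may be technical.

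The start regions of Etv5, Dusp6 and Il17rd, which with Etv4 were the members whose levels moved together most closely, and of Etv1, which followed another pattern, are shown so that the ETS-type sites in them can be seen. RefSeq sequences on GRCm38.p6 were matched by symbol for 7 of the 10 genes (all but Etv4, Dusp4 and Spry4), in 9 windows, and each window holds the 250 bases before a start site on the gene's own strand. The array files name no genome build, so no other coordinates are given. Letters in capitals are matches to AGGAAG, the PEA3-type ETS motif, on either strand.
Etv1 (GRCm38.p6 chr12:38779832-38780081, plus strand): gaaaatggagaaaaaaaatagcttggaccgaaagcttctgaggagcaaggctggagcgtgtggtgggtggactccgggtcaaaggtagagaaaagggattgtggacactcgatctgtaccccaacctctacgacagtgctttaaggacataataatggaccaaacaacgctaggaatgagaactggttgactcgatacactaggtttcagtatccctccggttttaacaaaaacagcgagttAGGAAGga
Etv5 (GRCm38.p6 chr16:22439571-22439820, minus strand): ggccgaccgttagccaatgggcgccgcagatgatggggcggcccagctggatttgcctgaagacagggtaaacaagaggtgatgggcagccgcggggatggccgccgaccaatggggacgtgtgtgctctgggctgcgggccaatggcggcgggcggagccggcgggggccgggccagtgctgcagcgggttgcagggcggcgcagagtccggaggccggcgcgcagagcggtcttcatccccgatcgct
Dusp6 (GRCm38.p6 chr10:99262981-99263230, plus strand): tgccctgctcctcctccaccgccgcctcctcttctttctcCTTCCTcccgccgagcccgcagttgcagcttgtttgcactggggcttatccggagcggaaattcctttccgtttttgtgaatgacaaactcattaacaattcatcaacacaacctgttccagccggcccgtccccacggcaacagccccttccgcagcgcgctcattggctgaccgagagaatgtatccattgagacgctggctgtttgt
Il17rd (GRCm38.p6 chr14:27038751-27039000, plus strand): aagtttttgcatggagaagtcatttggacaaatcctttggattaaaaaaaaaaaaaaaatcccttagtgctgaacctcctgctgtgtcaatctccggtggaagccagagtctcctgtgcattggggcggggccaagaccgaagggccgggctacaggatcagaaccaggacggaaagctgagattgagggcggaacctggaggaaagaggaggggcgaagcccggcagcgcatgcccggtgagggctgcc
The Etv1 window shown held AGGAAG on the gene's strand, beginning at -8 from the start site, and the Dusp6 window held it on the opposite strand, at -210. These were 2 of the 9 member windows, and the second Etv1 window, which begins at base 38783461, did not hold it. Of 32851 mouse windows of the same length, 29.48 percent held AGGAAG on either strand. The longer ETS motif CCGGAAG, which cannot share a GGAAG with the first, was in none of the 9 member windows and in 6.907 percent of all windows. The cyclic AMP response element TGACGTCA was in none of the 9 and in 1.546 percent of all windows. These letters are a description of the windows and not evidence of binding.

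Levels are given as log2 of the background-subtracted intensity minus the array's 75th percentile, so 0 is the 75th percentile of that array, and they compare arrays for a probe, not probes with each other. The share of spots well above background ran from 42.4 to 64.6 percent over the arrays and was lowest in adult LG. Of 15 epithelial markers, all were well above background in the 3 embryonic epithelia. Their summed linear level ran from 357.1 to 450.1 in the gland epithelia, from 5.856 to 24.5 in the gland mesenchymes and from 94.12 to 226 in the eyelid mesenchyme, against 1120 to 1236 in the eyelid epithelium. The 15 mesenchymal markers summed to 1660 to 2462 in the 3 mesenchymes and to 136.9 to 311.1 in the 3 embryonic epithelia. The eyelid mesenchyme also held skeletal muscle RNA (summed level of 10 markers 77.95 to 157.9, against at most 9.593 in every other embryonic group). The array labelled adult HG replicate 1 stood apart from the other adult HG arrays, with a muscle sum of 109.3 against 10.11 and 2.057 and a mesenchymal sum of 648.8 against 387.6 and 314.8, and results that rest on it are given with and without it. In mixed tissue, fewer cells of a type and less RNA per cell cannot be told apart.

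**Figure D1:**
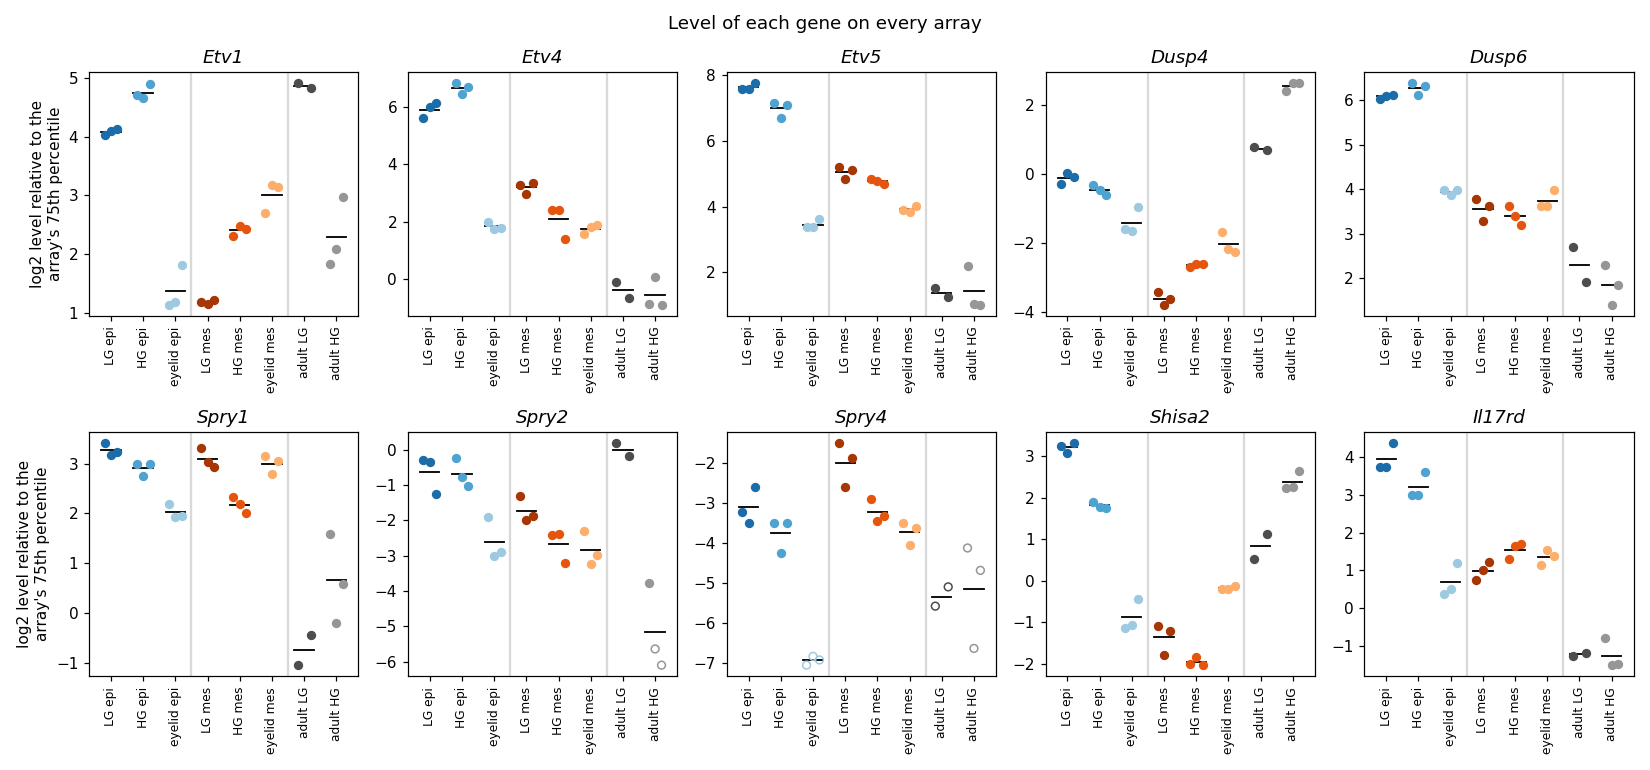
Level of each of the 10 genes on every array (points, filled where the probe was well above background and open where it was not) with the group mean (line), as log2 level relative to the array's 75th percentile, for embryonic epithelium (epi) and mesenchyme (mes) of LG, HG and eyelid and for whole adult glands. Etv4, Etv5, Dusp6 and Il17rd are highest in the 2 gland epithelia and lowest in the adult glands, whereas Dusp4 is highest in adult HG.

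Within the glands most members were higher in epithelium than in mesenchyme, and in the eyelid most were not. In LG 7 of 10 were higher in epithelium (all but the 3 Sproutys) and 1, Spry4, was lower, by limma's moderated test with Benjamini-Hochberg adjustment over all genes at an adjusted p under 0.05 (such a difference is termed called below). Over all genes 58.6 percent were called in that comparison, 32.1 percent higher and 26.5 percent lower. In HG 9 of 10 were called higher (29.8 percent of all genes) and none lower (28.1 percent), with 57.9 percent called in all. The median member difference, epithelium minus mesenchyme, was 2.65 on the log2 scale in LG and 2.19 in HG, against 0.11 and 0.03 over all genes. Taken within each slide, the member medians were 2.36, 2.78 and 2.70 in LG and 2.34, 2.04 and 2.29 in HG. In the eyelid 1 gene, Dusp4, was called higher in epithelium (25.7 percent of all genes) and 5 were called lower (25.5 percent, and 51.2 percent in either direction), namely Etv1, Spry1, Spry4, Shisa2 and Il17rd. The eyelid median was -0.56, with -0.66, -0.66 and -0.25 within slides 1, 2 and 3, against 0.05 over all genes. With arrays scaled on their median in place of the 75th percentile, 3 of these 6 eyelid calls remained (Etv1, Spry1 and Spry4). Because embryonic slide number equals replicate number, the slides and any pairing of samples cannot be told apart.

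**Figure D2:**
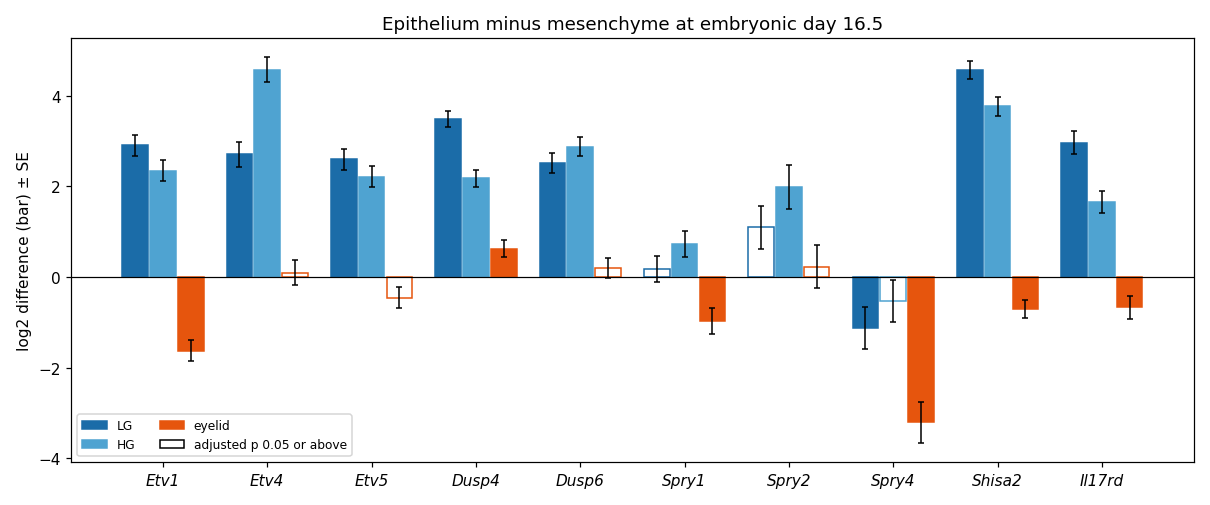
Log2 difference between epithelium and mesenchyme (bars, ± SE of the fit, 3 arrays per group) for each gene in LG, HG and eyelid at embryonic day 16.5, with called differences filled and the others open. Etv1, Shisa2 and Il17rd lie above 0 in both glands and below 0 in the eyelid, and the fitted eyelid bar for Spry4 rests on an epithelial level that was not well above background.

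The 3 ETS factors were high in both gland epithelia. In LG, Etv5 read 7.58, 7.58 and 7.76 in epithelium and 5.19, 4.82 and 5.12 in mesenchyme. In HG it read 7.15, 6.70 and 7.09 in epithelium and 4.85, 4.77 and 4.70 in mesenchyme. In the eyelid it read 3.37, 3.37 and 3.61 in epithelium and 3.89, 3.83 and 4.01 in mesenchyme. All gland epithelial arrays were thus above all gland mesenchymal arrays, and the eyelid epithelial arrays lay below every gland array of either layer. The epithelial excess was 2.59 ± 0.23 (SE) in LG, 6.04-fold (adjusted p = 2.21e-08), and 2.21 ± 0.23 in HG, 4.63-fold (adjusted p = 2.04e-07). In the eyelid the difference was -0.46 ± 0.23 (adjusted p = 0.110).

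Etv4, the founding PEA3 factor, had its steepest layer difference in HG. It read 6.83, 6.46 and 6.68 in HG epithelium against 2.42, 2.42 and 1.41 in HG mesenchyme. In LG it read 5.60, 5.98 and 6.14 in epithelium against 3.27, 2.97 and 3.37 in mesenchyme. In the eyelid the layers overlapped, at 2.003, 1.75 and 1.80 in epithelium and 1.56, 1.83 and 1.88 in mesenchyme. The HG excess was 4.57 ± 0.28, or 23.8-fold (adjusted p = 3.51e-10), and the LG excess 2.70 ± 0.28, or 6.52-fold (adjusted p = 1.19e-07). The LG excess was smaller than the HG excess by a difference of differences of -1.87 ± 0.39 (adjusted p = 0.00383). The second Etv4 probe, well above background on every embryonic array, gave 2.94 in LG, 4.88 in HG and a difference of differences of -1.94 (adjusted p over probes = 0.00486).

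Etv1 differed between the mesenchymes without overlap of the arrays, though HG against eyelid mesenchyme was not called (adjusted p = 0.0720). In LG it read 4.03, 4.09 and 4.12 in epithelium and 1.17, 1.15 and 1.22 in mesenchyme. In HG it read 4.71, 4.65 and 4.89 in epithelium and 2.30, 2.49 and 2.43 in mesenchyme. In the eyelid the order was turned, with 1.13, 1.18 and 1.82 in epithelium and 2.70, 3.17 and 3.14 in mesenchyme. No epithelial array overlapped the mesenchymal arrays of its tissue. The differences were 2.90 ± 0.23 in LG (adjusted p = 4.71e-09), 2.34 ± 0.23 in HG (adjusted p = 8.62e-08) and -1.63 ± 0.23 in the eyelid (adjusted p = 8.52e-06). The second Etv1 probe stayed near background on all arrays of the gland mesenchymes and the eyelid epithelium, where it was not well above it, and its 3 layer differences had the same signs and were also called.

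The 2 MAP kinase phosphatases, which take phosphate off ERK, were both higher in gland epithelium, and Dusp4, the nuclear form, had the larger excess in LG. It read -0.29, 0.02 and -0.10 in LG epithelium against -3.41, -3.79 and -3.63 in LG mesenchyme. In HG it read -0.33, -0.47 and -0.60 in epithelium and -2.70, -2.61 and -2.61 in mesenchyme. In the eyelid it read -1.61, -1.65 and -0.97 in epithelium and -1.67, -2.18 and -2.26 in mesenchyme, with every epithelial array still above every mesenchymal array. The layer difference was 3.49 ± 0.18 in LG, 11.2-fold (adjusted p = 5.22e-11), 2.17 ± 0.18 in HG, 4.51-fold (adjusted p = 1.31e-08), and 0.63 ± 0.18 in the eyelid (adjusted p = 0.00756, or 0.0619 without eyelid epithelium replicate 3). LG exceeded HG in this difference by 1.32 ± 0.26 (adjusted p = 0.00231), a call lost under median scaling (adjusted p = 0.0760). The gap was made up of 0.34 in epithelium, which was not called, and -0.98 in mesenchyme, where Dusp4 was 1.97-fold lower in LG than in HG. Dusp6, the cytoplasmic phosphatase of ERK, read 6.03 to 6.38 over the 6 gland epithelial arrays and 3.18 to 3.98 over the 12 arrays of eyelid epithelium and all mesenchymes. Its layer difference was 2.52 ± 0.22 in LG, 2.88 ± 0.22 in HG and 0.20 ± 0.22 in the eyelid (adjusted p = 1.24e-08, 3.65e-09 and 0.475).

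The Sproutys, inhibitors of signalling between receptor and Ras, were the members not called higher in LG epithelium. Spry1 read 3.18 to 3.41 in LG epithelium and 2.94 to 3.32 in LG mesenchyme, so that the layers overlapped (0.18 ± 0.29, 95 percent interval -0.43 to 0.79, adjusted p = 0.636). In HG it was higher in epithelium by 0.74 ± 0.29 (adjusted p = 0.0376), a call lost with normexp and quantile (0.0650), with median scaling (0.117), with quantile normalization (0.0789) and without HG epithelium replicate 1 or 3 or HG mesenchyme replicate 2 or 3 (0.0729 to 0.111). In the eyelid Spry1 was higher in mesenchyme, at 3.15, 2.80 and 3.05 against 2.19, 1.94 and 1.94 (-0.97 ± 0.29, adjusted p = 0.00889). Spry2 read -0.25, -0.76 and -1.03 in HG epithelium and -2.42, -2.38 and -3.21 in HG mesenchyme, a 3.97-fold difference (1.99 ± 0.48, adjusted p = 0.00157). In LG it read -0.30, -0.35 and -1.26 in epithelium and -1.32, -1.99 and -1.89 in mesenchyme, without overlap. That difference of 1.098 ± 0.48 was not called (adjusted p = 0.0576), but was called with replicate number as a block (adjusted p = 0.00548).

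Spry4, unlike the other members, had its highest group mean in a mesenchyme, that of LG. It read -1.50, -2.60 and -1.86 in LG mesenchyme against -3.21, -3.50 and -2.61 in LG epithelium. The epithelium was lower by -1.12 ± 0.46 (adjusted p = 0.0433). The call was lost under median scaling (adjusted p = 0.145), under quantile normalization (0.125), without the probe filter (0.0560) and without LG epithelium replicate 1 or 2 or LG mesenchyme replicate 1 or 3 (0.0981 to 0.161). In HG Spry4 read -3.49, -4.26 and -3.50 in epithelium and -2.91, -3.44 and -3.32 in mesenchyme, a difference of -0.53 that was not called (95 percent interval -1.49 to 0.43). In the eyelid it was well above background on all 3 mesenchymal arrays (-3.49, -4.06 and -3.63) and on no epithelial array, and the mesenchyme was at least 1.87-fold higher (adjusted p = 9.62e-06). Such a bound divides the brighter group's mean by the lowest signal found well above background on each array of the dimmer group (or the probe's own, if higher), averaged over its arrays.

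The 2 inhibitors that act on the receptor itself, Shisa2 (which holds FGF receptors in the endoplasmic reticulum) and Il17rd (also named Sef, a membrane protein), turned from an epithelial excess in the glands to a mesenchymal excess in the eyelid. Shisa2 read 3.23, 3.08 and 3.31 in LG epithelium against -1.10, -1.78 and -1.21 in LG mesenchyme. In HG it read 1.89, 1.77 and 1.76 in epithelium against -1.997, -1.84 and -2.03 in mesenchyme. In the eyelid it read -1.14, -1.06 and -0.45 in epithelium and -0.21, -0.19 and -0.13 in mesenchyme. The layers were far apart in the glands, by 23.7-fold in LG (4.57 ± 0.20, adjusted p = 1.18e-11) and 13.6-fold in HG (3.76 ± 0.20, adjusted p = 1.11e-10). In the eyelid the difference was small and in the other direction (-0.71 ± 0.20, adjusted p = 0.00666), a call lost under median scaling (0.0966). Il17rd read 3.75, 3.72 and 4.36 in LG epithelium and 0.74, 1.003 and 1.21 in LG mesenchyme. In HG it read 3.01, 3.01 and 3.59 in epithelium and 1.29, 1.65 and 1.69 in mesenchyme. The LG difference of 2.96 ± 0.25 exceeded the HG difference of 1.66 ± 0.25 by 1.30 ± 0.36 (adjusted p = 0.0267). That last call was lost under median scaling (adjusted p = 0.215) and without LG epithelium replicate 3, LG mesenchyme replicate 1 or 2, HG epithelium replicate 1 or 2 or HG mesenchyme replicate 2 or 3 (0.0507 to 0.0772). In the eyelid it read 0.36, 0.52 and 1.19 in epithelium and 1.15, 1.53 and 1.38 in mesenchyme, which overlap. That difference of -0.67 ± 0.25 (adjusted p = 0.0342) was no longer called without eyelid epithelium replicate 1 or 2 or eyelid mesenchyme replicate 2 or 3 (0.0756 to 0.151). The call was also lost under median scaling (0.144) and with only the compared groups (0.0583).

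Whether the layer difference depended on the tissue was tested as a difference of differences over the same fit. LG minus eyelid was called higher for 9 of 10 members (20.6 percent of all genes) and lower for none (16.7 percent), with 37.2 percent of all genes called. HG minus eyelid was called higher for 9 of 10 (19.5 percent) and lower for none (16.9 percent), with 36.4 percent of all genes called, and Spry2 was the member not called in either (adjusted p = 0.345 and 0.0502). For HG minus eyelid, Spry2 was called with replicate number as a block (adjusted p = 0.00420), with the slide as a block (0.00358), with median scaling (0.0428) and under 5 other alternatives with all arrays kept. The counts of 9 include Spry4, whose eyelid epithelial arrays were not well above background. With that level at its bound, the Spry4 difference was at least -0.22 for LG, so that its sign is not set, and at least 0.37 for HG, and 8 members were called in each test beside it. The member medians were 2.74 and 2.67 against 0.09 and 0.04 over all genes. Within slides they were 2.40, 3.15 and 2.69 for LG minus eyelid and 2.66, 2.38 and 2.95 for HG minus eyelid. The differences were largest for Shisa2 (5.27 ± 0.29) and Etv1 (4.53 ± 0.32) in LG and for Etv4 (4.48 ± 0.39) and Shisa2 (4.47 ± 0.29) in HG. Both tests share the eyelid arrays. Summed epithelial markers were higher in the eyelid mesenchyme (94.12 to 226) than in the gland mesenchymes (5.856 to 24.5). Their part in these differences was not tested. The smallest called differences were less firm. Spry1 in LG (1.15 ± 0.41, adjusted p = 0.0347) was lost under median scaling (0.106), under quantile normalization (0.0526) and without any of 8 arrays (0.0529 to 0.0749), the 4 that kept it being LG epithelium replicate 2, LG mesenchyme replicate 1, eyelid epithelium replicate 1 and eyelid mesenchyme replicate 2. The Spry4 call for LG was lost without LG mesenchyme replicate 2 (adjusted p = 0.0515) and with normexp and quantile (0.0363, adjusted p = 0.932). The larger Spry4 difference for HG was also no longer called with normexp and quantile (0.421, adjusted p = 0.218). LG minus HG was called for 3 of 10 members, Dusp4 and Il17rd higher (4.67 percent of all genes) and Etv4 lower (4.04 percent), with 8.71 percent of all genes called.

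Between the epithelia, all 10 members were called higher in LG than in eyelid (27.2 percent of all genes, with 18.3 percent lower and 45.5 percent in either direction). All 10 were also higher in HG than in eyelid (26.6 percent of all genes, with 18 percent lower and 44.6 percent in either direction), again with the eyelid arrays shared. For no member did a gland epithelial array overlap an eyelid epithelial array, but the share of all genes without such overlap was not counted. The member medians were 2.98 for LG and 2.60 for HG, or 2.42 and 2.42 with Spry4 set at its bound, against 0.10 and 0.11 over all genes. Median scaling moved the medians over all genes to 0.33 and 0.29, and all 10 members stayed called in both. Etv4 was 16.6-fold higher in LG (4.05 ± 0.28, adjusted p = 1.02e-09) and 28.0-fold higher in HG (4.81 ± 0.28, adjusted p = 1.37e-10) than in eyelid epithelium. Etv5 was 18.2-fold and 11.6-fold higher (4.19 ± 0.23 and 3.53 ± 0.23), and Shisa2 17.0-fold and 6.46-fold (4.09 ± 0.20 and 2.69 ± 0.20). Il17rd was 9.55-fold and 5.70-fold higher, Etv1 6.52-fold and 10.4-fold, and Dusp6 4.42-fold and 5.05-fold. Spry4 was at least 2.87-fold higher in LG and at least 1.84-fold higher in HG. The smallest differences were those of Spry1 (1.25 ± 0.29 and 0.89 ± 0.29) and Dusp4 (1.29 ± 0.18 and 0.95 ± 0.18). The Spry1 call for HG was lost without HG epithelium replicate 1 or 3 or eyelid epithelium replicate 2 or 3 (adjusted p 0.0520 to 0.0558). Mesenchymal markers summed to 198.6 to 287 in eyelid epithelium, above the 136.9 to 186.9 of LG epithelium and within the 170.3 to 311.1 of HG epithelium. Markers of Schwann cells and melanocytes summed to 102.8 to 146.9 in eyelid epithelium and to 2.355 to 7.342 in the gland epithelia, and erythroid markers to 37.49 to 136 against 199.7 to 546.2. The part of these cells in the differences was not tested.

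**Figure D3:**
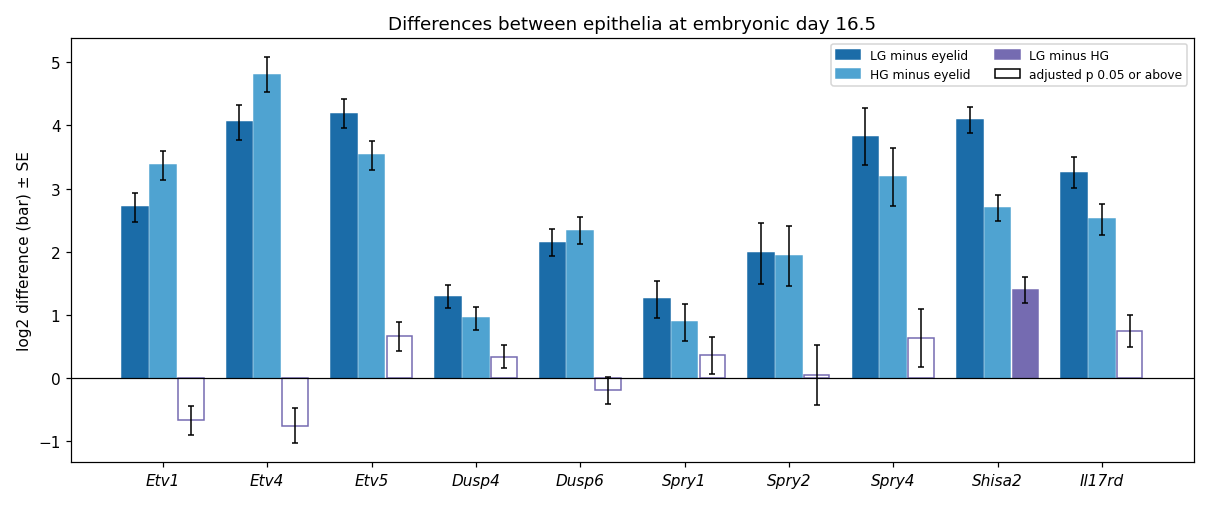
Log2 differences between embryonic epithelia (bars, ± SE of the fit, 3 arrays per group) for LG minus eyelid, HG minus eyelid and LG minus HG, with called differences filled. All bars against the eyelid are called and above 0, and Shisa2 is the member called between the glands. The Spry4 bars against the eyelid are fitted values, for which the text gives bounds.

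Between the 2 gland epithelia 1 of 10 members was called, a count near the share over all genes. Shisa2 was called higher in LG than in HG epithelium, by 1.40 ± 0.20 or 2.64-fold (adjusted p = 0.000137), with 2.97 percent of all genes called higher, 3.39 percent lower and 6.35 percent in either direction. The other 9 were not called. Etv1 (-0.67, 95 percent interval -1.15 to -0.19) and Etv4 (-0.75, -1.33 to -0.18) had lower means in LG, and Etv5 (0.66, 0.17 to 1.15) and Il17rd (0.74, 0.21 to 1.27) higher means, without overlap of the arrays. Etv1 was called with replicate number as a block (adjusted p = 0.0390), and 4 members were called after normexp background correction with quantile normalization. The shares of all genes called in those fits are not given. The intervals for Dusp6 (-0.65 to 0.26) and Spry2 (-0.96 to 1.05) held 0. Within slides the member median was 0.16, 0.46 and 0.37.

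Between LG and HG mesenchyme 4 of 10 were called (14.3 percent of all genes), with Etv4 and Spry1 higher (6.46 percent) and Etv1 and Dusp4 lower (7.84 percent) in LG. Etv1 was 2.34-fold lower (-1.23 ± 0.23, adjusted p = 0.000973), Dusp4 was lower by -0.98 ± 0.18 (adjusted p = 0.000938) and Etv4 was 2.17-fold higher (1.12 ± 0.28, adjusted p = 0.00899). The Etv4 call was lost without HG mesenchyme replicate 3 (adjusted p = 0.0700), which read 1.41 where the other HG arrays read 2.42. Spry1 was higher by 0.92 ± 0.29 (adjusted p = 0.0412), a call lost without any of the 6 arrays compared (0.0674 to 0.145). With replicate number as a block 7 members were called, the added ones being Spry2, Spry4 and Shisa2, all higher in LG (adjusted p = 0.0459, 0.0367 and 0.0411). The share of all genes called with the block is not given, so this count has no share to be set against. The member median was 0.44, with 0.59, 0.06 and 0.63 within slides 1, 2 and 3, against -0.03 over all genes. Markers of Schwann cells and melanocytes summed to 30.98 to 37.21 in LG and 99.92 to 130.7 in HG mesenchyme, neuronal markers to 51.12 to 58.81 and 18.61 to 30.93, and endothelial markers to 71.13 to 78.69 and 113 to 119.9. Their part in these differences was not tested.

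Against the eyelid mesenchyme, 6 of 10 members were called in LG (31.2 percent of all genes), 3 higher (15.5 percent) and 3 lower (15.7 percent). Etv4 (1.44 ± 0.28), Etv5 (1.14 ± 0.23) and Spry4 (1.74 ± 0.46) were higher in LG mesenchyme, and Etv1 (-1.82 ± 0.23), Dusp4 (-1.58 ± 0.18) and Shisa2 (-1.18 ± 0.20) were lower. Spry2 was added with replicate number as a block (1.11, adjusted p = 0.0104). In HG mesenchyme 4 of 10 were called against the eyelid (22.4 percent of all genes, with 11.1 percent higher and 11.3 percent lower), Etv5 higher (0.86 ± 0.23, adjusted p = 0.0112) and Shisa2 (-1.78 ± 0.20, adjusted p = 2.98e-06), Dusp4 (-0.60 ± 0.18, adjusted p = 0.0228) and Spry1 (-0.82 ± 0.29, adjusted p = 0.0495) lower. The block added Etv1 (adjusted p = 0.0256). The Spry1 call was lost without any of the 6 arrays compared (0.0622 to 0.158), and the Dusp4 call without HG mesenchyme replicate 1, 2 or 3 or eyelid mesenchyme replicate 1 (0.0519 to 0.136). Under median scaling the Etv5, Dusp4 and Spry1 calls were lost (adjusted p = 0.0793, 0.341 and 0.291). Dusp4 was also lost with normexp and quantile (0.111) and with quantile normalization (0.0554), and Spry1 without the probe filter (0.0649). Epithelial and muscle markers were also higher in the eyelid mesenchyme than in the gland mesenchymes (summed levels above), and their part in these differences was not tested.

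From the embryonic epithelium to the adult whole gland, most members fell by large factors. In adult LG 7 of 10 were called lower (38.7 percent of all genes) and Etv1 and Dusp4 higher (31.2 percent) than in LG epithelium, with 69.8 percent of all genes called. In adult HG 8 of 10 were called lower (35.6 percent) and Dusp4 and Shisa2 higher (34.4 percent) than in HG epithelium, with 70 percent called. The member medians were -3.08 and -3.44, against -0.10 and 0.06 over all genes, and under median scaling the medians over all genes were -0.57 and -0.12. Within slides the member medians were -2.98 and -3.08 for LG on slides 2 and 3, and -3.19, -3.72 and -3.44 for HG on slides 1 to 3. These comparisons set separated epithelium against whole glands that hold mesenchyme, vessels and immune cells, so age and tissue composition cannot be told apart. Summed epithelial markers read 561.3 and 787.1 in adult LG and 301.7 to 397.2 in adult HG.

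Etv4 read -0.10 and -0.65 in adult LG and -0.85, 0.07 and -0.89 in adult HG, all below every embryonic array. Its fall was 77.6-fold in LG (-6.28 ± 0.31, adjusted p = 3.58e-12) and 149-fold in HG (-7.22 ± 0.28, adjusted p = 8.90e-14). Etv5 read 1.52 and 1.24 in adult LG and 2.21, 1.05 and 1.01 in adult HG, which is 76.7-fold and 47.1-fold lower (-6.26 ± 0.26 and -5.56 ± 0.23). The adult glands overlapped for both genes. Il17rd was 36.0-fold lower in LG (-5.17 ± 0.28) and 21.99-fold lower in HG (-4.46 ± 0.25), Dusp6 13.7-fold and 21.5-fold (-3.77 ± 0.24 and -4.43 ± 0.22), and Spry1 16.1-fold and 4.75-fold (-4.01 ± 0.32 and -2.25 ± 0.29). Without adult HG replicate 1 the HG falls were -5.95 ± 0.15 for Etv5, -4.70 ± 0.26 for Il17rd and -2.71 ± 0.22 for Spry1, which read 1.58 on that array and -0.19 and 0.60 on the others. Spry4 was not well above background on any adult array. It was at least 1.29-fold lower in adult HG, with overlapping values (adjusted p = 0.0113, or 0.0944 without adult HG replicate 2), and no fold is given for LG.

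For 4 further members, as for Spry1 above, the adult arrays of the 2 glands did not overlap. The share of all genes without such overlap was not counted. Whether the change with age differed between the glands was not tested. Etv1 read 4.92 and 4.82 in adult LG and 1.83, 2.08 and 2.97 in adult HG. It was thus above LG epithelium by 0.79 ± 0.26 (adjusted p = 0.0110, or 0.0620 without adult LG replicate 1) and below HG epithelium by -2.46 ± 0.23 (adjusted p = 2.13e-08). The second Etv1 probe gave 0.63 for the LG difference, which was not called (adjusted p over probes = 0.240). Spry2 read 0.18 and -0.18 in adult LG against -3.76, -5.64 and -6.10 in adult HG, where only replicate 1 was well above background. Its fall in HG was -4.49 ± 0.48 (adjusted p = 1.27e-07). Without that array it was still called, but no size is given, since neither remaining adult HG array was well above background. In LG the difference was not called (0.64, 95 percent interval -0.49 to 1.76). Dusp4 read 0.77 and 0.69 in adult LG and 2.41, 2.62 and 2.64 in adult HG. It was the member called higher than embryonic epithelium in both glands, by 0.85 ± 0.20 in LG (adjusted p = 0.00114) and 3.02 ± 0.18 in HG, 8.11-fold (adjusted p = 4.56e-11). Shisa2 read 0.52 and 1.13 in adult LG and 2.23, 2.26 and 2.63 in adult HG. It fell by 2.38 on the log2 scale in LG (SE 0.23) and was 0.57 ± 0.20 higher in HG (adjusted p = 0.0185, or 0.0830 without adult HG replicate 3). Under median scaling the rises of Etv1 and Dusp4 in LG and of Shisa2 in HG were not called (adjusted p = 0.500, 0.331 and 0.352).

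**Figure D4:**
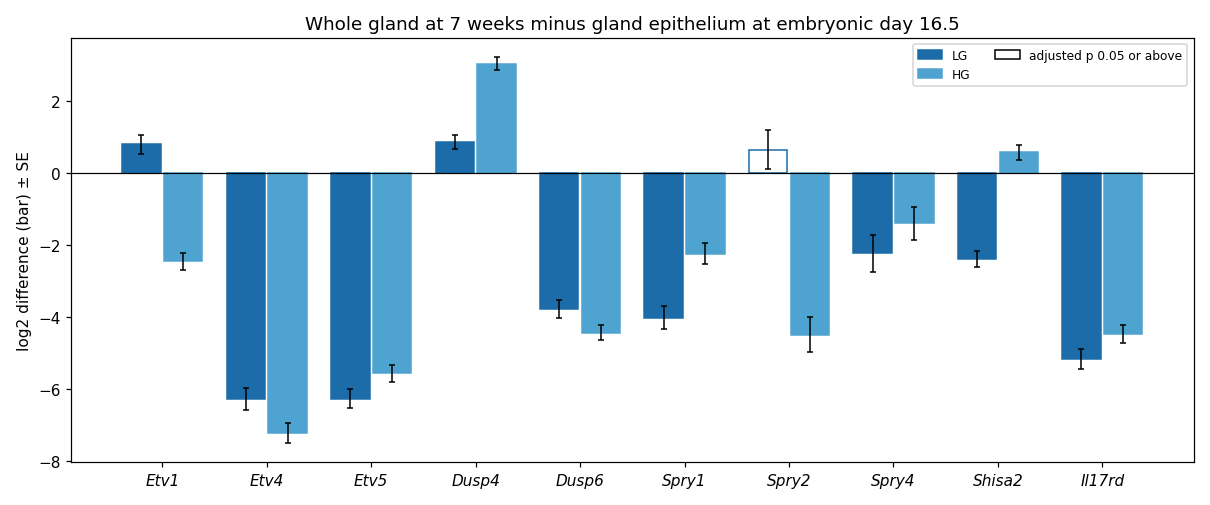
Log2 difference between the whole gland at 7 weeks and the gland epithelium at embryonic day 16.5 (bars, ± SE of the fit, 2 adult LG and 3 adult HG arrays against 3 embryonic arrays each), with called differences filled. Etv4 and Etv5 have the deepest bars in LG and HG, and Dusp4 lies above 0 in both. Spry4 bars are fitted values against adult levels that were not well above background.

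Between the adult glands 5 of 10 members were called (55.6 percent of all genes). Spry2 (5.17 ± 0.54, adjusted p = 1.99e-07) and Etv1 (2.58 ± 0.26, 5.96-fold, adjusted p = 1.23e-07) were higher in LG, with 22.4 percent of all genes called higher. Dusp4 (-1.83 ± 0.20, adjusted p = 5.12e-07), Shisa2 (-1.55 ± 0.23, adjusted p = 1.37e-05) and Spry1 (-1.40 ± 0.32, adjusted p = 0.00131) were lower in LG, with 33.2 percent called lower. The Spry2 value rests on adult HG arrays of which 1 of 3 was well above background. Without adult HG replicate 1 these 5 stayed called, Etv1, Dusp4, Shisa2 and Spry1 at 2.34, -1.90, -1.62 and -0.94 and Spry2 with no size given, and Dusp6 was added (0.68, adjusted p = 0.0197), as it was without adult LG replicate 2 (0.85, adjusted p = 0.0155). With only the compared groups the Spry1 call was lost (adjusted p = 0.0900). Dusp6 was also called with normexp and quantile (adjusted p = 0.0221) and with quantile normalization (0.0383). The within-slide member medians were 0.35 and 0.15 on slides 2 and 3. For Etv4, Etv5, Spry4 and Il17rd the sign changed with the setting and no direction is given. Markers of Schwann cells and melanocytes summed to 3.342 to 3.988 in adult LG and 45.95 to 59.59 in adult HG, and mesenchymal markers to 151.1 to 170.8 and 314.8 to 648.8. Their part in these differences was not tested.

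Over the 23 arrays the members fell into unlike patterns. The correlations below are descriptions over arrays that share 8 groups and 3 slides. Etv4, Etv5, Dusp6 and Il17rd had pairwise Pearson's r of 0.92 to 0.97. Spry1 followed them less closely (0.71 to 0.82), and Spry2 (0.51 to 0.62) and Spry4 (0.32 to 0.58) less again. Dusp4 had negative r with Etv5 (-0.37) and Spry1 (-0.60) and its highest with Shisa2 (0.79). Genes outside the members followed them more closely. Ranked by r among all other tested genes, the closest member stood at 2 for Il17rd, 5 for Etv5, 8 for Etv4 and 24 for Dusp6. For the other members this rank ran from 323 (Shisa2) to 1251 (Spry4). The span from the lowest to the highest of the 8 group means was 7.22 for Etv4, 6.26 for Etv5, 6.17 for Dusp4 and 3.69 for Etv1, the smallest among the members, against a median of 2.45 over all genes. The median SD within a group was 0.11 for Etv1 and 0.47 for Spry2, the least and most variable members.

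**Figure D5:**
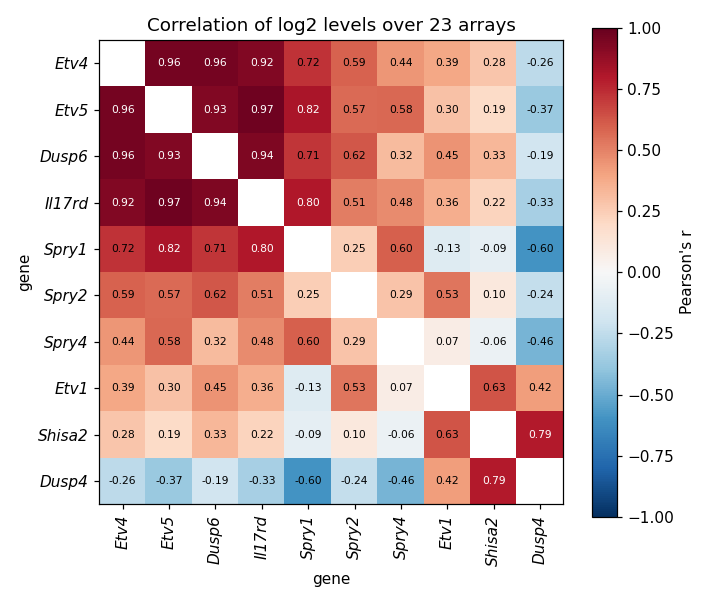
Pearson's r between the log2 levels of each pair of members over 23 arrays, coloured from -1 (blue) to 1 (red) with the value printed. Etv4, Etv5, Dusp6 and Il17rd form a block of 0.92 to 0.97, and Dusp4 is negative against 7 of the 9 other members but 0.79 with Shisa2.

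The order of group means shows where these patterns part. For Etv5 and Il17rd the order began with LG epithelium and then HG epithelium, and for Etv4 with HG epithelium and then LG epithelium, with no overlap between neighbours. For Dusp6 these 2 groups overlapped. After them, LG mesenchyme stood alone for Etv4, whereas HG mesenchyme, eyelid epithelium and eyelid mesenchyme overlapped in turn. For Il17rd the 3 mesenchymes and the eyelid epithelium formed a chain of overlapping neighbours. Dusp4 had no overlapping neighbours at all, running from adult HG through adult LG, LG, HG and eyelid epithelium to eyelid, HG and LG mesenchyme. Spry2 began with adult LG, followed by the overlapping gland epithelia, and ended with adult HG. The step from adult LG to LG epithelium was not called for Spry2 (adjusted p = 0.296). For Dusp4 the call of that step was lost under median scaling (adjusted p = 0.331). Shisa2 began with LG epithelium, followed by adult HG and HG epithelium, and ended with HG mesenchyme.

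By the same measure over the 23 arrays, the genes most like each member were found with the members themselves left out. Etv5 and Il17rd shared Col2a1, the type II collagen gene (r = 0.981 and 0.971), and Etv5 was the member closest to both Etv4 (0.958) and Il17rd (0.971). Etv4 was most like Sh2d5 (0.978) and Umps (0.973), Dusp6 like Gemin2 (0.976) and Set (0.974), and Dusp4 like Slc25a33 and Chchd10 (0.978 each). Spry1 was most like Nsg1 (0.958) and Prim1 (0.955), Spry2 like Mfge8 (0.938) and Slc7a3 (0.919), and Spry4 like Itpr1 (0.943) and Smtn (0.924). Shisa2 was most like Mrpl12 (0.936) and Prss16 (0.932), and Etv1 like Btn2a2 (0.914) and Fam181b (0.910). The second gene most like Etv5 was Ccdc160 (0.981), and that most like Il17rd, after Col2a1, was Emid1 (0.967).

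Among the other genes of the pathway, FGF ligands were called in both directions between the layers. Of 16 tested, 4 were called higher and 7 lower in epithelium in LG (32.1 and 26.5 percent of all genes), 3 and 6 in HG (29.8 and 28.1 percent), and 4 and 7 in the eyelid (25.7 and 25.5 percent). Fgf10, the mesenchymal ligand of gland budding, was lower in epithelium than in mesenchyme, by -5.79 ± 0.70 in LG, -6.73 ± 0.70 in HG and -4.46 ± 0.70 in the eyelid. Its mean level was 4.23 in LG mesenchyme, 4.24 in HG mesenchyme and 0.96 in eyelid mesenchyme. The LG and HG mesenchymes thus exceeded the eyelid by 3.27 ± 0.70 (adjusted p = 0.00152) and 3.28 ± 0.70 (adjusted p = 0.00201). Fgf7, which binds the same receptor form, was also lower in epithelium, by -4.57, -3.41 and -4.04. Fgf20 was higher in epithelium in all 3 tissues, by at least 12.9-fold in LG, at least 3.86-fold in HG and 4.999 on the log2 scale in the eyelid (adjusted p = 4.83e-10 in LG and 1.41e-08 in HG). Fgf9 was higher in epithelium in LG (4.83 ± 0.48) and was also called higher in HG.

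Of 6 receptors and co-receptors tested, 5 were called between layers in LG, 3 in HG and 5 in the eyelid, against 58.6, 57.9 and 51.2 percent of all genes. Fgfr2, the receptor of Fgf10 and Fgf7, was higher in epithelium by 0.82 ± 0.11 in LG, 0.65 ± 0.11 in HG and 1.15 ± 0.11 in the eyelid. It was lower in gland than in eyelid epithelium (-0.64 ± 0.11 for LG and -0.84 ± 0.11 for HG), where the 10 members were all higher. Fgfr1 was higher in gland than in eyelid epithelium (2.22 ± 0.28 and 1.85 ± 0.28) and Fgfr3 lower (-4.73 ± 0.34 and -3.95 ± 0.34). The gene symbols do not separate the receptors' splice forms. In the adult glands Fgfr1 and Fgfr2 were lower than in the embryonic epithelium, by -3.23 and -1.22 in LG and -2.44 and -2.01 in HG. Fgfr1 was read from its brightest kept probe. With the median over probes, its sign changed between the HG layers and between the adult glands (values below).

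Other feedback and FGF-linked genes did not all follow the members. Of 18 tested, 5 were called higher and 6 lower in LG than in eyelid epithelium (27.2 and 18.3 percent of all genes), and 5 and 8 in HG (26.6 and 18 percent). Dusp9, another ERK phosphatase, was higher in gland epithelium than in mesenchyme (3.27 ± 0.22 in LG and 4.54 ± 0.22 in HG), as were Dusp14 (3.22 and 3.54, and 2.61 in the eyelid) and Phlda1 (3.56 ± 0.22 in LG). Dusp9 was also called higher in eyelid epithelium, and Phlda1 in HG and eyelid epithelium. Shisa3, a relative of Shisa2, was at least 7.39-fold lower in HG epithelium than in HG mesenchyme (adjusted p = 1.70e-11) and at least 10.4-fold lower in LG than in HG mesenchyme (adjusted p = 6.78e-11). Flrt1 was lower in gland than in eyelid epithelium (-3.02 and -3.05). From embryonic epithelium to the adult gland 12 of these 18 were lower in LG (38.7 percent of all genes) and 13 in HG (35.6 percent). Dusp9 was at least 10.7-fold lower in LG and at least 28.6-fold lower in HG (adjusted p = 1.09e-12 and 1.23e-14).

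Of 21 ERK-responsive transcription genes, 5 were called higher and 8 lower in LG than in eyelid epithelium, and 4 and 9 in HG. Of all genes 27.2 percent were higher and 18.3 percent lower in LG, and 26.6 and 18 percent in HG, which holds for the next lists too. Ccnd1 (3.17 and 3.48) was higher, and Klf4 (-4.54 and -4.01) and Fosl2 (-4.19 and -4.73) were lower. Of 24 adaptors and kinases of the ERK cascade 5 were higher and 2 lower in LG, and 3 and 3 in HG. Of 23 carriers and heparan sulfate genes 11 were higher and 4 lower in LG, and 8 and 3 in HG, with Hs3st1 higher (3.39 and 2.06) and Fgfbp1 lower (-3.99 and -5.09). The medians of these 3 lists were -0.37, 0.17 and 0.55 for LG and -0.34, 0.05 and 0.28 for HG, beside 2.98 and 2.60 for the members and 0.10 and 0.11 for all genes. The members and all these lists share the same arrays.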

How the data were processed

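RNA of 23 samples in 8 groups, taken from the labels, was measured on 1-colour (Cy3) Agilent arrays on 3 slides. The deposited scanner files hold linear intensity per spot, background-subtracted by the authors' scanner software, with flags per spot. The submitters' processing notes name Agilent Feature Extraction 11.5.1.1; for slide 1 the version was 11.0.1.1, per the file headers. The deposited series matrix holds the same intensity, not scaled between arrays. Outlier spots were left out and spots of a probe averaged, with no member value missing. Values are log2 intensity minus the array's 75th percentile. Of 55681 probes 27509 matched 20887 symbols through RefSeq accessions and 28172 did not. Probes were kept if, in some group, a 0.5 share or more of their spots exceeded background well on each array. A gene was read from its brightest kept probe (16323 genes).

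All groups entered 1 fit with limma 3.58.1 in R 4.3.3 (lmFit, eBayes, two-sided, Benjamini-Hochberg adjustment over 16323 genes, threshold 0.05, 95 percent intervals). The fit was also run on simulated arrays with independent noise. Those arrays lack the correlation between samples given below, so they do not test the fit under it. Matplotlib 3.10.9 drew the figures. The members, gene lists and tests were chosen with earlier results of these data known. Pathway genes named were, per list and comparison, up to 3 called with the largest differences, well above background in the brighter group and without overlap, beside Fgf10, Fgf7, Fgfr1 and Fgfr2 in every case, and the 2 genes most like each member by Pearson's r. Embryonic replicate numbers come from the labels and equal the slide. They paired the samples by the correlation of the samples' deviations from group means (0.17 to 0.58 in the 9 comparisons of embryonic groups). In comparisons with adult glands, matched by replicate number, these correlations ran from -0.34 to 0.37. Adult LG replicates 1 and 2 were on slides 2 and 3, so for adult LG that check cannot show whether arrays of a slide were paired. Alternatives were the replicate or slide as a block, normexp (offset 50), median or quantile scaling, other probe filters and summaries, an intensity trend, only the compared groups, and each array left out. Because the scanner files used here hold no mean-signal column, normexp used the spot and background medians.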

Additional observations from a re-analysis of the deposited data

Results flagged for a closer look

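For the members below, the layer difference (epithelium minus mesenchyme) was not the same in the tissues compared, by the test of the difference of differences (adjusted p under 0.05 over all genes). Taken as LG minus eyelid, it was 4.53 for Etv1, 2.61 for Etv4 and 3.05 for Etv5 on the log2 scale. It was 2.86 for Dusp4 and 2.32 for Dusp6, 1.15 for Spry1 and 2.09 for Spry4, and 5.27 for Shisa2 and 3.63 for Il17rd. Taken as HG minus eyelid, it was 3.97 for Etv1, 4.48 for Etv4 and 2.67 for Etv5. It was 1.55 for Dusp4 and 2.68 for Dusp6, 1.71 for Spry1 and 2.68 for Spry4, and 4.47 for Shisa2 and 2.32 for Il17rd. Taken as LG minus HG, it was -1.87 for Etv4, 1.32 for Dusp4 and 1.30 for Il17rd. These 21 differences share arrays, and the fitted eyelid value of Spry4 rests on epithelial arrays that were not well above background. With that level at its bound, the Spry4 difference was at least -0.22 for LG minus eyelid, so that its sign is not set, and at least 0.37 for HG minus eyelid.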

How the results depend on the processing

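Of 103 called member differences, 103 kept their direction and 82 kept direction and call under every alternative run. The count of members called moved by more than 1.5 times in these cases. For eyelid epithelium against mesenchyme it went from 6 to 3 with median scaling. For LG against HG epithelium it went from 1 to 2 with the replicate block, the slide block, quantile normalization or only the compared groups, and to 4 with normexp and quantile normalization. For LG against HG mesenchyme it went from 4 to 7 with the replicate or the slide block, and was 2 to 4 with an array left out. For HG against eyelid mesenchyme it went from 4 to 1 with median scaling, and was 2 to 3 with an array left out. For the compartment difference LG minus HG it went from 3 to 1 with median scaling and to 5 with only the compared groups. Counts over all genes are given below for some of these settings and not for the others. The replicate block lost no call; in compartment differences, where not every pair correlated above 0.1 (lowest 0.07), it added Spry2 for HG minus eyelid. The slide block lost no call either. It added each call that the replicate block added, as well as Spry2 in adult LG against LG epithelium and Shisa2 for LG minus HG.

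Signs changed only for differences that were not called in the fit reported above. With normexp and quantile these were Etv4 in eyelid epithelium against mesenchyme (-0.0059), Spry1 in LG against eyelid mesenchyme (-0.0266), and Etv5 (0.0670) and Il17rd (-0.104) in adult LG against HG. With quantile normalization they were Fgf10 in LG against HG mesenchyme (0.0130), Spry1 in LG against eyelid mesenchyme (-0.0073), and Etv5 (0.0785) and Il17rd (-0.0956) in adult LG against HG. In the same adult comparison median scaling gave -0.0651 for Etv4 and -0.214 for Il17rd, and the slide block 0.0301 for Etv5 and -0.0335 for Il17rd. The median over probes gave 0.33 for Fgfr1 in HG epithelium against mesenchyme and 1.22 in adult LG against HG, where it was called. With an array left out, ranges that crossed 0 were -0.238 to 0.0324 (Fgfr1, HG layers), -0.12 to 0.49 (Spry2, eyelid layers), -0.13 to 0.36 (Spry2, LG against HG epithelium), -0.0906 to 0.0725 (Fgf10, LG against HG mesenchyme), -0.0174 to 0.173 (Spry1, LG against eyelid mesenchyme) and -0.0276 to 0.442 (Spry2, HG against eyelid mesenchyme). In adult LG against HG they were -0.0904 to 0.498 (Etv4), -0.25 to 0.35 (Etv5), -0.93 to 0.32 (Spry4), -0.0922 to 0.271 (Il17rd) and -0.685 to 0.0493 (Fgfr1). The causes were not tested.

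Over all genes, median scaling called 630 in place of 1037 (LG against HG epithelium), 1230 for 2335, 2774 for 5090 and 2203 for 3653 (the mesenchymes LG against HG, LG against eyelid and HG against eyelid), and 741 for 1422, 3471 for 6077 and 3395 for 5948 (compartment differences LG minus HG, LG minus eyelid and HG minus eyelid). With only the compared groups the counts were 4313 for 2335 (LG against HG mesenchyme), 4369 for 9080 (adult LG against HG) and 2624 for 1422 (LG minus HG). The share of calls that were higher was 40.3 percent in adult LG against HG and 44.6 percent in adult LG against LG epithelium, but 27.9 and 31.9 percent with median scaling and 52.2 and 58.1 percent without the probe filter. The number of arrays and signal over background limit the precision, most for Spry4, Spry2 in adult HG and the second probe of Etv1.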
